A study of Mus musculus with 12 samples.

Results

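The genes described here are 10 components of the epithelial tight junction: the claudins Cldn1, Cldn2, Cldn3, Cldn4, Cldn7, Cldn8, Cldn15 and Cldn23, occludin (Ocln) and ZO-1 (Tjp1). They were taken by gene symbol from a table of 17734 genes, and all 10 were in it and passed the filter on low values. RNA came from the large bowel of adult male C57BL/6 mice, 12 in all, 3 in each of 4 groups. Normal mice received neither agent, and normal mice receiving BBR were given berberine, a plant alkaloid, by gavage. Colitis mice were given dextran sulfate sodium (DSS), a polymer that injures the bowel lining, for 7 days, and colitis mice receiving BBR were given both. The labels give 7 days of BBR in the sample titles and 6 days of gavage in the protocol. They call the tissue colorectum, while the study's methods describe rectal samples. The comparisons ask how these genes differ with colitis and with BBR in normal and colitis mice.

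Tight junctions seal the space between neighbouring epithelial cells near their apical side. Claudins span the membrane and pair across that space, and the set of claudins in a cell sets which ions and water pass. Some, such as the products of Cldn1, Cldn3, Cldn4, Cldn7 and Cldn8, are mostly described as sealing or barrier claudins, while those of Cldn2 and Cldn15 form channels for cations. Occludin is another membrane protein of the junction, and ZO-1 is a scaffold that ties the membrane proteins to actin. In the bowel, the Cldn2 protein is known from the crypts, where cells divide.

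Values are deposited expression values read as FPKM, which are scaled by transcript length and sequencing depth. They can therefore be compared between genes as levels. Tests used log2(FPKM + 0.1) in limma, with 1 fit over the 12 mice and Benjamini-Hochberg adjusted p-values over 15315 genes. For single genes, all ways of splitting 6 mice into 3 and 3 were also compared, an exact permutation test, two-sided, whose smallest p is 0.1. Fold changes on this scale understate the change of low genes, above all Cldn1. Whether the mice came from separate cages is not given in the sources used here. In whole tissue, fewer cells of a type and less RNA per cell cannot be told apart.

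In each group 1 mouse is numbered 4, and these 4 mice stood apart from the other 8. Their column totals were 482194 to 504337, against 696286 to 765876, and they had 872 to 1086 genes at 0, against 1332 to 1926. The labels do not say what the numbers mark. Results that rest on these mice are given below with and without them. The 12 markers of simple epithelium were above 0 in every mouse, with a summed level of 12418 to 17798 FPKM in normal mice and 12671 to 18412 in colitis mice. Of the 14 markers of squamous epithelium, which lines the anal canal, 12 were in the table, and they summed to 1.52 to 10.1 FPKM over the mice. Of the defining basal markers, Krt5 reached at most 0.12 FPKM and Trp63 was at 0 in 7 mice, while Krt13 (0.21 to 5.18 FPKM), Krt14 (0.16 to 1.96) and Krt10 (0.68 to 1.72) were above 0 in every mouse. Krt13 was 0.66 to 5.18 FPKM in colitis mice and 0.23 to 1.21 FPKM in normal mice, and Krt6a was 0.14 to 0.97 FPKM in colitis mice and listed at 0 in normal mice. Krt15 was 0.18 to 0.40 FPKM in colitis mice and 0.45 to 0.57 FPKM in normal mice, and Lor was 0 to 0.21 against 0.09 to 0.25 FPKM. Of the 8 squamous markers tested, 4 had a positive and 4 a negative log2 fold change. None passed an adjusted p of 0.05 in the fit without a block, where 1.08% of all genes did. With the mice numbered 4 as a block in the fit, Krt6a passed (log2 fold change 2.18, limma adjusted p = 0.0295), where 9.22% of all genes did. The part of squamous cells in the values of the 10 genes was not tested.

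The promoters of the 3 genes with a mean over 1 FPKM whose levels ranged most widely between the mice, Cldn15, Cldn2 and Cldn4, are shown first. RefSeq windows of 250 bases before the annotated start were matched for 8 of the 10 genes, and Cldn8 and Cldn23 had none. The build is GRCm38.p6, while the authors aligned to mm9, so these positions belong to the reference and not to the deposited table. The Cldn2 window is chrX:139800558-139800807 on the plus strand, the Cldn15 window chr5:136967619-136967868 on the plus strand, and the Cldn4 window chr5:134946935-134947184 on the minus strand. Each is written 5′ to 3′ along the gene, and capitals mark matches to the motifs searched.
Cldn2: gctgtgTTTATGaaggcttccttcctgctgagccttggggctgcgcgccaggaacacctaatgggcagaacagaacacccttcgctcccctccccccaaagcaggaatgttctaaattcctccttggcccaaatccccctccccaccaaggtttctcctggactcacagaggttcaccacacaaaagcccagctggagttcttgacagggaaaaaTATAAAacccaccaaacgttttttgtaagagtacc
Cldn15: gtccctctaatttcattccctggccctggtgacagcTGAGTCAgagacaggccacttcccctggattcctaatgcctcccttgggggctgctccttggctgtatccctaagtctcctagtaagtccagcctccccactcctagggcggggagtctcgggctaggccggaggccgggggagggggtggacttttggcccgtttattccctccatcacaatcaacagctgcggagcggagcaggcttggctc
Cldn4: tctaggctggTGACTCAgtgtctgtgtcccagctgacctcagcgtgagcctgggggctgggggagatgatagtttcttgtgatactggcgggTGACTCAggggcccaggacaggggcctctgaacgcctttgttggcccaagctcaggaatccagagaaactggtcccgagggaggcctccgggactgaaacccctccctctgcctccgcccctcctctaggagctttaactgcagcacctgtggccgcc

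Motifs were searched on both strands. The letters taken for the intestinal Cdx factors were TTTATG. Those of Hnf4, another factor of the bowel epithelium, were CAAAGTCCA. Stat factors were searched as TTCNNNGAA. Tcf and Lef factors of the Wnt pathway were searched as CTTTGAT. The AP-1 letters were TGANTCA. The TATA box was searched as TATAAA, whose reverse complement shares 5 letters with the Cdx motif, and no match overlapped another in these windows. The Cldn2 window held a Cdx match 244 bases before the start and a TATA match 35 bases before it. The Cldn15 window held 1 AP-1 match, 214 bases before the start. Cldn4 had 2 AP-1 matches, 240 and 158 bases before its start. Of 32851 promoter windows of the same length, 10.8% held the Cdx letters, 12.4% the TATA letters and 6.75% the AP-1 letters. The others were in 0.384% (Hnf4), 7.02% (Stat) and 3.21% (Tcf/Lef), and none of these was in the 3 windows. A match is a description of letters and not of binding.

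The levels of the 10 genes spanned a wide range. Cldn7 and Cldn3 were the most abundant, at means of 492 and 420 FPKM over the 12 mice. Cldn8 (62.1), Cldn4 (56.7), Ocln (50.8), Tjp1 (40.3), Cldn23 (31.1), Cldn2 (19.0) and Cldn15 (15.5) followed in that order, and Cldn1 was lowest at 0.713 FPKM. This order pools the 4 groups, and the middle of it was not the same in each. In normal mice Ocln came before Cldn8, in normal mice receiving BBR Ocln and Tjp1 did, and in colitis mice Cldn4 came before Cldn8. Within normal mice, the ranges of neighbours in their own order overlapped at every step but 2, from Cldn3 down to Ocln and from Cldn15 down to Cldn1. Neighbours between those steps did not differ beyond their spread.

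**Figure D1:**
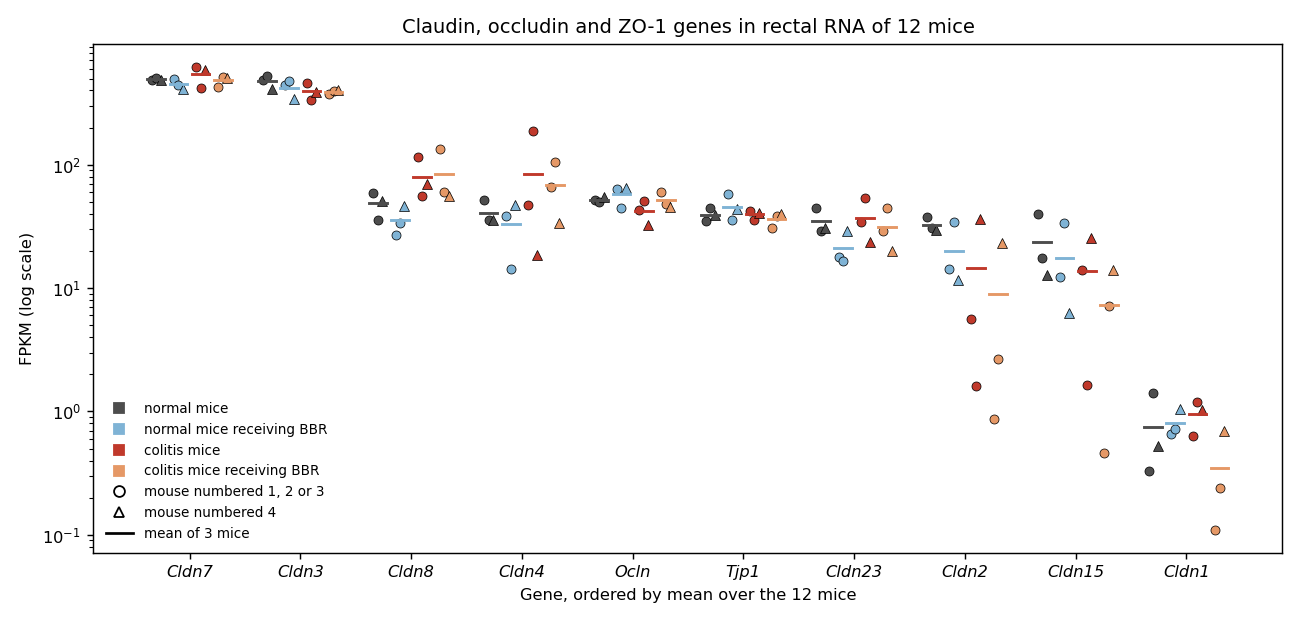
FPKM on a log axis for 10 tight junction genes in each of 12 mice, ordered by their mean, with 3 mice in each of 4 groups. Points are mice, triangles mark the mice numbered 4 and short bars are group means. Cldn7 and Cldn3 lie at or above 333 FPKM in every mouse, while Cldn2 spreads from 0.87 to 37.82 FPKM and Cldn15 from 0.46 to 40.10 FPKM.

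How much a gene varied between mice differed between the genes as well. The standard deviation of Cldn2 over the 12 mice on the log2 scale was 1.88, higher than in 98.9% of the tested genes, and that of Cldn15 was 1.77, higher than in 98.6%. Cldn7, at 0.18, was above only 2.83% of genes, Cldn3 above 4.77% and Tjp1 above 7.36%. The highest value of Cldn7 was 1.51 times its lowest, that of Cldn3 1.58 times and that of Tjp1 1.88 times. For Cldn2 this ratio was 43.5 and for Cldn15 87.2.

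Between colitis and normal mice, Cldn2 had the log2 fold change furthest from 0 of the 10 genes, and the mice numbered 4 did not share this fall. Cldn2 was 5.61 and 1.62 FPKM in colitis mice 1 and 2 and 36.39 FPKM in colitis mouse 4, against 37.82, 30.71 and 29.60 FPKM in normal mice 1, 3 and 4. The first 2 colitis mice lay below every normal mouse, and mouse 4 lay within the normal range. Over all mice the log2 fold change was −2.20 (SE 1.14, limma adjusted p = 0.273), and it was −1.18 without colitis mouse 2 and −3.38 without colitis mouse 4. None of the 10 genes passed an adjusted p of 0.05 in this comparison, where 1.08% of all tested genes did, and none was within the study's limit of an unadjusted P of 0.05, where 21.4% were. With the replicate number as a block, Ocln was within that limit (log2 fold change −0.51, limma adjusted p = 0.140), where 26.2% were. Number 2 occurs only in colitis mice, with or without BBR, so this block is partly confounded with colitis wherever it is used. For none of the 10 were the groups apart, against 29.3% of all tested genes.

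Cldn15, the other cation channel claudin, was 14.03 and 1.65 FPKM in colitis mice 1 and 2 and 25.64 FPKM in mouse 4. Normal mice had 40.10, 17.69 and 12.69 FPKM. Here too the mouse numbered 4 had the highest value of the colitis mice, and the groups overlapped (log2 fold change −1.28, 95% confidence interval −3.90 to 1.34, limma adjusted p = 0.518). Single mice moved this value, to −0.13 without colitis mouse 2, to −0.81 without normal mouse 1 and to −2.07 without colitis mouse 4. The replicate number as a block turned its sign, to 0.086.

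The same split held in colitis mice receiving BBR. Cldn2 was 0.87 and 2.67 FPKM in mice 2 and 3 and 23.17 FPKM in mouse 4, and Cldn15 was 0.46, 7.22 and 14.06 FPKM in the same order. Normal mice receiving BBR had 14.16, 34.17 and 11.58 FPKM of Cldn2 and 12.31, 33.85 and 6.30 FPKM of Cldn15, with the lowest value of both in mouse 4. In the 4 colitis mice numbered 1 to 3, with or without BBR, Cldn2 was 0.87 to 5.61 FPKM, and in the 4 normal mice with those numbers it was 14.16 to 37.82 FPKM.

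In a fit of the 8 mice numbered 1 to 3 alone, with 2 mice in each group, Cldn2 was the only one of the 10 genes past the adjusted limit. It was lower in colitis than in normal mice by a log2 fold change of −3.45 (SE 0.73, limma adjusted p = 0.0485, 95% confidence interval −5.18 to −1.71), where 5.25% of all genes passed. In colitis mice receiving BBR against normal mice receiving BBR it fell by 3.75 on the log2 scale (limma adjusted p = 0.0332), where 15% of genes passed. Against normal mice it fell by 4.38 (limma adjusted p = 0.0259), where 14.1% passed. In the mice numbered 4, 1 mouse against 1, the same 3 differences were 0.30, 0.99 and −0.35 on the log2 scale. These comparisons share mice and are not independent. The fit of the mice numbered 1 to 3 leaves out the 2 colitis mice whose Cldn2 was not low, at 36.39 and 23.17 FPKM. Its p-values are therefore no separate support for a fall of Cldn2.

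A test of whether the colitis difference itself differed between the mice numbered 4 and the others was added after seeing the data. For Cldn2 the difference was 4.25 on the log2 scale (SE 0.79, 95% confidence interval 2.47 to 6.03, limma adjusted p = 0.0450), where 2.04% of the 15315 genes passed. Cldn15 differed by 3.96 (SE 1.48), but did not pass (limma adjusted p = 0.146). For Cldn4 it was −2.20 (limma adjusted p = 0.153) and for Cldn23 −1.11 (limma adjusted p = 0.146), with colitis values higher in the mice numbered 1 to 3.

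Leukocyte markers moved with the same split by number. The 11 leukocyte markers summed to 744 and 989 FPKM in colitis mice 1 and 2, to 177 FPKM in colitis mouse 4, and to 107 to 138 FPKM in normal mice. In colitis mice receiving BBR they summed to 331 and 395 FPKM in mice 2 and 3 and to 57.5 FPKM in mouse 4. S100a8, a neutrophil protein, was the 1 gene of the marker lists past the adjusted limit in colitis against normal mice in the fit without a block. Over all genes, 1.08% passed there. S100a8 was 24.90 to 336.29 FPKM in colitis mice and at 0 in all normal mice, and it was at 0 in 6 of the 12 mice. Blocks changed this. With the mice numbered 4 as a block, where 9.22% of all genes passed, 4 leukocyte markers and the squamous marker Krt6a were higher past that limit. All 9 smooth muscle markers and 1 endothelial marker were lower past it. With the replicate number as a block, where 4.79% of all genes passed, 4 leukocyte markers were higher and 5 smooth muscle markers and 1 endothelial marker lower. The fit of the mice numbered 1 to 3 alone, where 5.25% passed, had 3 leukocyte markers higher past the limit and 1 smooth muscle marker lower. Among colitis mice, smooth muscle markers split by number only in those receiving BBR. The 9 of them summed to 1678 to 3176 FPKM in normal mice, to 73.9, 661 and 681 FPKM in colitis mice 1, 2 and 4, and to 506, 485 and 3552 FPKM in mice 2, 3 and 4 of the colitis mice receiving BBR. Normal mice with or without BBR were split too, at 1678 to 2971 FPKM in those numbered 1 to 3 and 3176 to 5038 FPKM in those numbered 4. The part of these cells in the Cldn2 and Cldn15 values was not tested. With each mouse centred on its simple epithelium markers, the log2 fold change of Cldn2 in colitis against normal mice was −2.17. Those markers were not chosen to mark crypts, so the part of crypt cells was not tested.

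**Figure D2:**
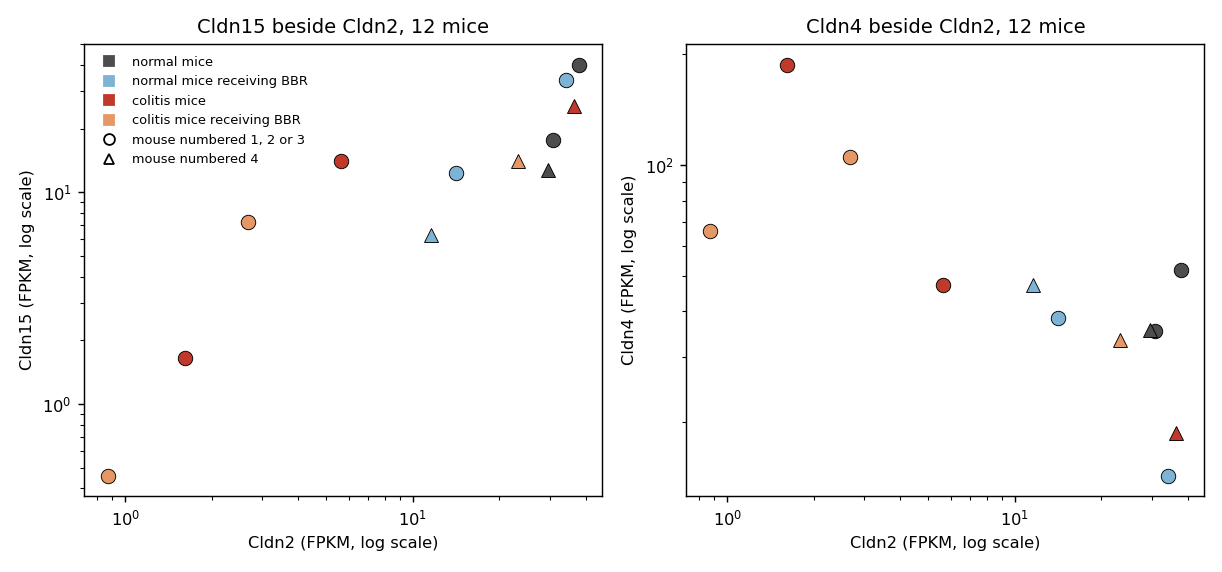
Cldn15 (left) and Cldn4 (right) plotted against Cldn2 in 12 mice, all in FPKM on log axes, with colours for the 4 groups and triangles for the mice numbered 4. The 4 colitis mice numbered 1 to 3 have the lowest Cldn2, at 0.87 to 5.61 FPKM, and 3 of them have the highest Cldn4.

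Among the barrier claudins, Cldn8 had its highest value in a colitis mouse receiving BBR and Cldn4 in a colitis mouse, and neither was within a limit in colitis against normal mice. Cldn8 was 114.78, 55.61 and 70.23 FPKM in colitis mice 1, 2 and 4, against 59.41, 35.90 and 50.76 FPKM in normal mice. All 3 colitis values lay above the normal mean, with an overlap of 1 mouse (log2 fold change 0.68, SE 0.38, limma adjusted p = 0.299), and the value was 0.39 without colitis mouse 1. Colitis mice receiving BBR had 135.28, 60.32 and 55.59 FPKM and normal mice receiving BBR 26.69, 33.88 and 46.67 FPKM. Those 2 groups were apart (log2 fold change 1.14, SE 0.38, limma adjusted p = 0.215, exact permutation p = 0.1), and 20.2% of all genes were apart in that comparison. Without mouse 2 of the colitis mice receiving BBR, the value was 0.73. In the fit over 12 mice without a block, Cldn8 was the 1 gene of the 10 within the unadjusted limit there, where 19.7% of all genes were (2.37% higher and 17.3% lower), and 0 of the 10 passed the adjusted limit, where 0.0392% did. Cldn1 joined it, lower, with the mice numbered 4 as a block (log2 fold change −1.21, limma adjusted p = 0.151), where 30.6% of all genes were within the limit. It did so too with the replicate number as a block (−1.29, limma adjusted p = 0.215), where 22.3% were. In the mice numbered 1 to 3 alone, 6 of the 10 were within it, where 38.9% of all genes were. Cldn4 (1.83), Cldn8 (1.58) and Cldn23 (1.07) were higher there, and Cldn1 (−1.55), Cldn2 (−3.75) and Cldn15 (−3.34) lower.

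Cldn4 was 187.58 FPKM in colitis mouse 2, 47.22 in mouse 1 and 18.63 in mouse 4, against 51.81, 35.34 and 35.63 FPKM in normal mice. The direction was not firm, since the log2 fold change of 0.45 became −0.44 without colitis mouse 2. It became −0.013 with the replicate number as a block. Colitis mice receiving BBR had 66.26, 104.92 and 33.43 FPKM, and normal mice receiving BBR 38.26, 14.28 and 47.10 FPKM. The 3 highest of the 12 Cldn4 values were all in colitis mice numbered 1 to 3, with or without BBR.

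Cldn3 and Cldn7, the abundant barrier claudins, moved little. Cldn3 was 463.06, 333.08 and 392.28 FPKM in colitis mice and 483.93, 527.23 and 407.80 FPKM in normal mice. The ranges overlapped, and the log2 fold change of −0.26 turned to 0.08 when each mouse was centred on its median. For Cldn7 the values were 618.71, 418.16 and 590.73 FPKM in colitis mice and 482.67, 501.52 and 490.20 FPKM in normal mice, a log2 fold change of 0.12 with a 95% confidence interval of −0.41 to 0.65. Cldn1, listed near the low end, was 0.63, 1.19 and 1.02 FPKM in colitis mice and 0.33, 1.40 and 0.52 FPKM in normal mice, which overlapped widely.

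Occludin and ZO-1 showed narrow ranges. Ocln was 43.06, 50.61 and 32.69 FPKM in colitis mice and 51.61, 49.70 and 54.65 FPKM in normal mice. All 3 colitis values lay below the normal mean, with an overlap between the groups (log2 fold change −0.32, 95% confidence interval −0.80 to 0.15), and the sign turned to 0.01 after centring on the median. Tjp1 was 42.09, 35.81 and 40.93 FPKM in colitis mice and 34.90, 44.46 and 38.92 FPKM in normal mice. Its log2 fold change was 0.01 with an interval of −0.44 to 0.46. Cldn23, a claudin of differentiated epithelium, was 34.41, 53.25 and 23.78 FPKM against 44.86, 28.95 and 30.68 FPKM, with a log2 fold change of 0.04. The scaling matters here because the 15315 tested genes had a median difference of −0.32 on the deposited log2 values and of −0.05 after quantile normalization, while the median of the 10 genes was 0.03.

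**Figure D3:**
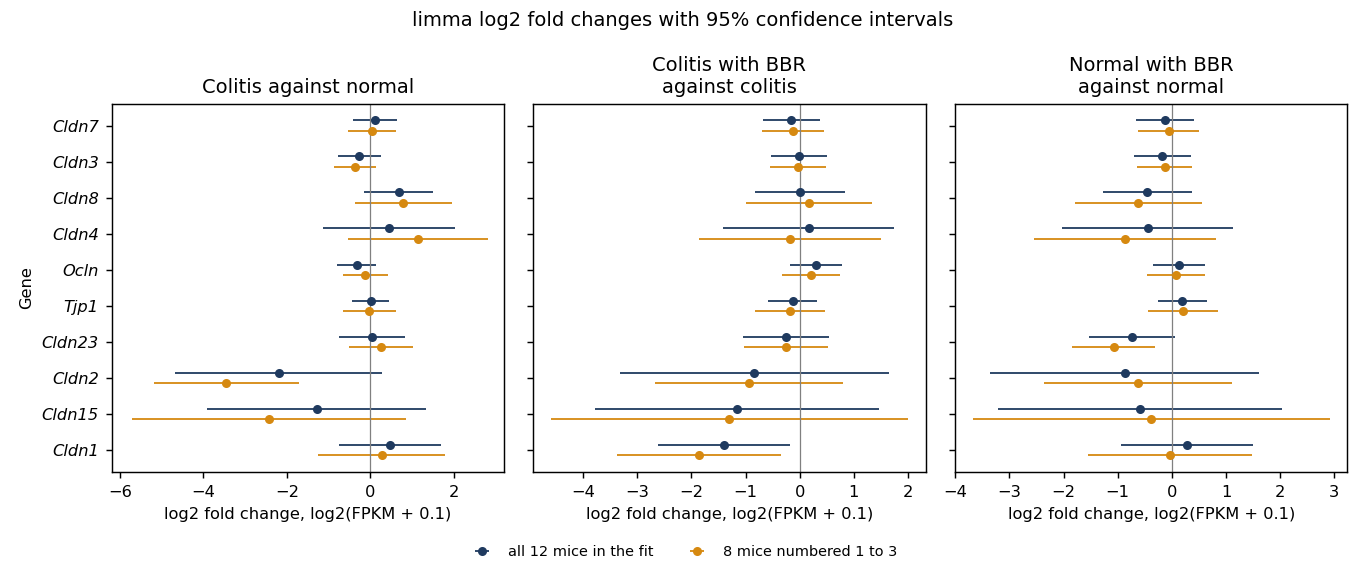
limma log2 fold changes of 10 genes on log2(FPKM + 0.1), with 95% confidence intervals, for colitis against normal mice, colitis mice with and without BBR, and normal mice with and without BBR. Dark points are the fit over 12 mice, and orange points the 8 mice numbered 1 to 3. In colitis against normal mice the orange interval of Cldn2, from −5.18 to −1.71, does not reach 0. That fit leaves out colitis mouse 4, whose Cldn2 was not low.

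With BBR in colitis mice, no gene of the 10 passed the adjusted limit, and 0% of all genes did. Cldn1 was the 1 gene within the unadjusted limit, where 6.39% of all genes were (1.19% higher and 5.2% lower), and 7.08% of all genes but none of the 10 had groups apart. Its values in colitis mice receiving BBR were 0.11, 0.24 and 0.70 FPKM, all below the mean of the colitis mice, and the groups overlapped (log2 fold change −1.40, SE 0.56, limma adjusted p = 0.693). The size of this fold change depended on the setting, at −0.54 with a pseudocount of 1 and −1.86 in the mice numbered 1 to 3 alone. By the steps between low values, 3 reads of Cldn1 would be worth 0.0564 FPKM in the mouse with 0.11 FPKM, so that value rests on few reads.

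Cldn2 and Cldn15 had lower means in colitis mice with BBR than without, by less than the spread between mice. In the mice numbered 4, Cldn2 was 23.17 FPKM with BBR and 36.39 FPKM without, and in the mice numbered 1 to 3 the means were 1.77 and 3.62 FPKM. The log2 fold changes over all mice were −0.84 (95% confidence interval −3.32 to 1.64) for Cldn2 and −1.15 (−3.77 to 1.47) for Cldn15. These intervals include both a large fall and a rise. Cldn2 turned to 0.34 without colitis mouse 4, and Cldn15 to 0.24 without mouse 2 of the colitis mice receiving BBR.

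The remaining 7 genes were within neither limit, with log2 fold changes from −0.25 to 0.30 over all mice. For Cldn4 the value was 0.16 (95% confidence interval −1.42 to 1.74), with 0.84 in the mice numbered 4 and −0.17 in the mice numbered 1 to 3. Cldn8 was at 0.0058 (−0.82 to 0.83), with −0.34 in the mice numbered 4 and 0.18 in the others. In both genes the mice numbered 4 and the others thus had opposite signs. Cldn3 was 374.50, 394.35 and 400.50 FPKM in colitis mice receiving BBR and Cldn7 430.68, 510.19 and 507.56 FPKM. Ocln was 60.63, 48.02 and 45.70 FPKM, each above the mean of the colitis mice, and the groups overlapped (log2 fold change 0.30, 95% confidence interval −0.17 to 0.77). Tjp1 was 30.56, 38.43 and 40.14 FPKM and Cldn23 28.91, 44.61 and 20.06 FPKM. The median of the 10 genes was −0.14, against −0.09 for all tested genes.

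With BBR in normal mice, none of the 10 genes was within either limit in the fit over 12 mice, where 0% of all genes passed the adjusted one and 1.36% the unadjusted one. None had groups apart, where 9.62% of all genes did. Cldn23 was 17.72, 16.44 and 29.11 FPKM with BBR, all below the mean of the normal mice (log2 fold change −0.74, SE 0.36). It was within the unadjusted limit in the mice numbered 1 to 3 alone (−1.07, limma adjusted p = 1), where 1.8% of all genes were. The lowest normal mouse had 28.95 FPKM, so the groups overlapped by 1 mouse. Cldn2 was lower in mean, at 19.97 against 32.71 FPKM (−0.87), and Cldn15 at 17.49 against 23.49 FPKM (−0.59), with overlapping values. Ocln was 64.01, 44.30 and 65.02 FPKM, Tjp1 57.55, 35.55 and 44.06 FPKM and Cldn1 0.65, 0.72 and 1.05 FPKM. Cldn3 was 442.15, 478.00 and 340.60 FPKM and Cldn7 499.02, 444.34 and 408.88 FPKM. The median of the 10 was −0.31, against −0.02 for all genes. The 12 markers of simple epithelium, none of them within either limit in the fit without a block, all had a negative log2 fold change in this comparison, with a median of −0.23.

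Colitis mice receiving BBR, set against normal mice, showed 2 genes with groups apart, Cldn2 and Cldn3, where 22.7% of all genes were apart. Cldn2 was within the unadjusted limit, where 20.1% of genes were (1.84% higher and 18.3% lower), while 0.0196% of genes but none of the 10 passed the adjusted one. Cldn2 had a log2 fold change of −3.04 (SE 1.14, limma adjusted p = 0.224, exact permutation p = 0.1), and of −2.02 without mouse 2 of the colitis mice receiving BBR. In the mice numbered 1 to 3 alone, Cldn1 (−1.59) and Cldn15 (−3.72) were also within the unadjusted limit, where 38.6% of all genes were. For Cldn3 the highest mouse with BBR and colitis had 400.50 FPKM and the lowest normal mouse 407.80 FPKM. The interaction of BBR and colitis was within neither limit for any of the 10 genes in the fit without a block, where 2.42% of all genes were within the unadjusted one. For Cldn1 it was within the unadjusted limit with the mice numbered 4 as a block (−1.68, limma adjusted p = 1.00), where 4.38% were, and with the replicate number as a block (−1.96, limma adjusted p = 0.932), where 5.09% were.

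The rest of the junction was followed by lists of genes. Of 16 other claudins 13 were in the table and 6 were tested, while 13 other tight junction membrane proteins, 23 scaffold and polarity proteins and 17 adherens junction and desmosome proteins were all tested. In colitis against normal mice none passed the adjusted limit. A block for the mice numbered 4 changed this for 4 genes, Igsf5, Pard6b, Cgnl1 and Dsc2, all higher in colitis mice (limma adjusted p = 0.0174, 0.0351, 0.0296 and 0.0457), where 9.22% of all genes passed. With the replicate number as a block, Igsf5 and Dsc2 passed (limma adjusted p = 0.0416 and 0.0323), where 4.79% of all genes did. Within the unadjusted limit, in the fit without a block, 1 membrane protein was higher and 3 lower, 2 scaffold and polarity proteins were higher and 2 lower, 2 adherens or desmosome proteins were higher and 1 lower, and 1 other claudin was lower, where 5.56% of all genes were higher and 15.9% lower. The list medians were 0.16 for other claudins, −0.10 for membrane proteins, −0.39 for scaffold and polarity proteins and −0.15 for adherens and desmosome proteins.

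The largest positive difference among the membrane proteins was that of Igsf5, a junctional adhesion molecule also called JAM4. It was 62.85 to 130.29 FPKM in colitis mice and 34.81 to 57.10 FPKM in normal mice (log2 fold change 1.07, limma adjusted p = 0.148). Ildr1, a receptor of tricellular junctions, followed at 116.38 to 146.02 against 74.74 to 102.65 FPKM (0.48, limma adjusted p = 0.240), with the groups apart. The scaffold proteins Cgnl1 (paracingulin) and Pard6b, a polarity protein, had the largest positive differences of their list, with Cgnl1 at 13.23 to 18.59 against 6.50 to 9.54 FPKM and Pard6b at 16.53 to 25.96 against 10.01 to 11.93 FPKM. Their groups did not overlap (limma adjusted p = 0.0753 and 0.0715). In the scaffold and polarity list 18 of 23 genes had a negative log2 fold change, as did 73.7% of all tested genes. Mpdz, a scaffold with many PDZ domains, had the most negative one of that list (−1.29), at 0.15 to 0.86 FPKM in colitis mice against 0.90 to 2.32 FPKM in normal mice, which did not overlap. Pard6g, a polarity protein, followed at 0.56 to 2.02 against 1.67 to 2.37 FPKM (−0.86), which did. Jam2 and Jam3, adhesion molecules also made by endothelium, had the most negative differences of the membrane protein list, with Jam2 at 0.56 to 1.85 against 2.30 to 3.58 FPKM and Jam3 at 0.99 to 3.29 against 4.20 to 4.92 FPKM. The summed endothelial markers were 8.01 to 23.8 FPKM in colitis mice and 24.3 to 27.8 FPKM in normal mice, and their part in the Jam2 and Jam3 values was not tested.

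Of the other claudins, Cldn14 was 3.90 to 16.11 FPKM in colitis mice and 2.88 to 4.10 FPKM in normal mice, and Cldn10 was 0.29 to 1.87 against 0.29 to 0.39 FPKM. Cldn5, the main claudin of blood vessels, was 0.82 to 4.44 against 2.50 to 3.26 FPKM. Cldn22 was listed at 0 in all 3 colitis mice and at 0.18 to 0.45 FPKM in normal mice. Among desmosome proteins, the cadherin Dsc2 was 58.16 to 90.06 FPKM in colitis mice and 32.83 to 47.79 FPKM in normal mice, and plakophilin Pkp3 was 44.42 to 57.53 against 34.26 to 37.48 FPKM. In both, every colitis mouse lay above every normal mouse. Envoplakin (Evpl) was 2.17 to 16.79 FPKM against 16.62 to 21.17 FPKM, which overlapped. Nectin1 was 0.23 to 1.81 against 0.58 to 1.94 FPKM.

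With BBR in colitis mice none of the 59 tested genes of these lists passed the adjusted limit, where 0% of all genes did, and 1 scaffold or polarity protein and 1 adherens or desmosome protein were lower within the unadjusted limit, where 5.2% of all genes were. The latter was Pkp3, at 29.67 to 39.58 FPKM with BBR (log2 fold change −0.51, limma adjusted p = 0.638). With BBR in normal mice none was within either limit. These counts are those of the fit over 12 mice without a block.

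In the mice numbered 1 to 3 alone, 3 of the 59 tested genes of these lists passed the adjusted limit in colitis against normal mice, near the 5.25% of all genes that did. Igsf5 was higher, and Lsr, the lipolysis-stimulated receptor of tricellular junctions, and Ybx3, a ZO-1 partner, were lower. Lsr was 39.10 and 42.24 FPKM in colitis mice 1 and 2, 80.01 FPKM in mouse 4 and 75.25, 75.42 and 93.64 FPKM in normal mice. Ybx3 was 46.94, 38.32 and 113.35 FPKM against 104.83, 84.80 and 105.16 FPKM. In both genes, as in Cldn2, the low values were in the colitis mice numbered 1 and 2.

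**Figure D4:**
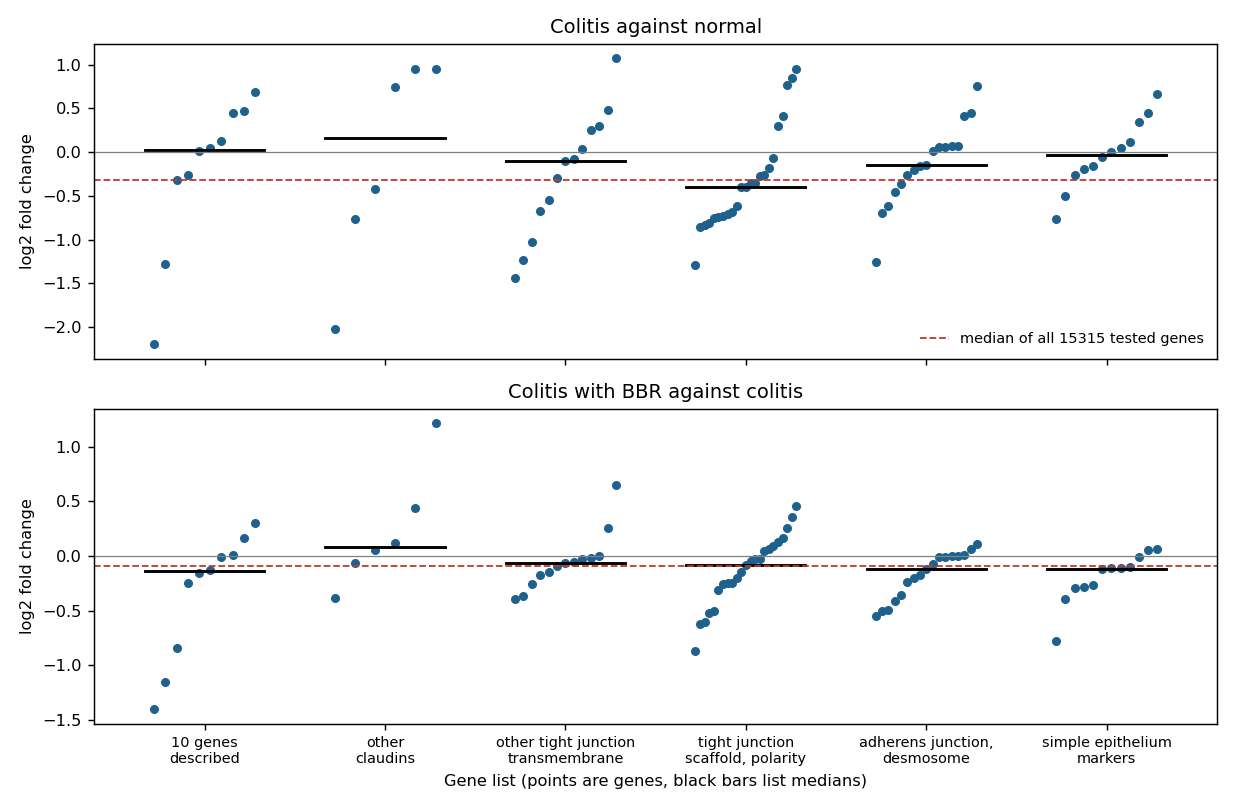
limma log2 fold changes of each gene in 6 lists, for colitis against normal mice (top) and colitis mice with BBR against colitis mice (bottom). Points are genes, black bars are list medians and the dashed line is the median of all 15315 tested genes, −0.32 above and −0.09 below. The list of 10 genes has a median of 0.03 above and −0.14 below.

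The genes whose levels followed each of the 10 most closely over the 12 mice were ranked by Pearson's r on the log2 scale among genes with a mean of at least 1 FPKM. The 12 mice share the 4 groups and the split by number, so r describes this set of mice and has no p. For Cldn2 the closest genes were Rab3d (0.99), Stk39 (0.98) and Nox1 (0.98), where Nox1 is an NADPH oxidase of the bowel epithelium. Nox1 was 11.39 to 17.83 FPKM in normal mice and 0.20 to 12.20 FPKM in colitis mice. Cldn15 stood at rank 726 of 11942 by likeness to Cldn2 (r = 0.90), and Cldn4 at rank 11819 (r = −0.78). Cldn4 was among the genes closest to Cldn23, at rank 4 (r = 0.82). For Cldn15 the closest were Shtn1, Kdm8 and Sult1c2, and for Cldn4 Vill, Sqstm1 and Zfand5. Cldn8 was followed by Cdk18, Mapk13 and Cpeb4, and Cldn23 by Birc3, Tmem140 and Bmp8b. The closest genes were Myof, Vcan and Ctsk for Cldn1, Tor4a, Aga and Usp4 for Cldn3, and Gmds, Flii and Heatr5a for Cldn7. Ocln was closest to Lmbrd1, Rffl and Radx, and Tjp1 to Esyt2, Cab39 and Pdlim5.

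By position in the RefSeq annotation, Cldn3 and Cldn4 are neighbours on chromosome 5, Cldn1 lies next to Cldn16 and Cldn8 next to Cldn17 on chromosome 16, and Ocln lies next to Marveld2 on chromosome 13. The neighbours Cldn3 and Cldn4 did not have like ranges, since Cldn3 differed by 1.58 times between its lowest and highest mouse and Cldn4 by 13.1 times. No stretch of 50 bases in the transcripts of the 10 genes was shared with another gene, so their reads can be told apart from those of other claudins.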

How the data were processed

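The authors sequenced large bowel RNA of 12 mice, grouped here by their labels. Reads were aligned to mm9 with Bowtie2 2.2.5 and expression was estimated with RSEM 1.2.12, by the submitters' processing notes. The labels and the methods name different library kits and sequencers. The deposited values were read as FPKM from the values themselves, and TPM cannot be told apart with certainty. The values hold no counts. Steps between low values put 1 read, as FPKM multiplied by transcript length, at 51.3 to 57.8 in mice with the number 4 and at 70.3 to 78.3 in the rest, but only 38.1% to 53.2% of low values lay on such steps, so reads were not recovered and no counting interval is given.

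Genes with a mean of at least 0.1 FPKM (15315 of 17734) were transformed to log2(FPKM + 0.1) and fitted in limma 3.58.1 (R 4.3.3), with 1 mean per group and a trend in the empirical Bayes spread. The limits were a Benjamini-Hochberg adjusted p of 0.05 over all tested genes and the study's unadjusted P of at most 0.05. Groups are called apart when no values overlap. Figures and all other values were made in Python 3.11.15 with pandas 2.3.3, NumPy 2.4.6, SciPy 1.17.1 and matplotlib 3.10.9. Named were the 10 genes, in colitis against normal mice the junction and squamous list genes past the adjusted limit or else the 2 largest rises and 2 largest falls of a list, and the 3 most alike genes. The rule's genes of the other marker lists and comparisons are given as sums or counts. Lsr, Ybx3, Pkp3 with BBR and the squamous markers Krt5, Trp63, Krt14 and Krt10 were named after their values were seen. The 10 genes and all lists were chosen with earlier results of these data known.

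The alternatives tried were other pseudocounts (1 and 0.01), no filter or one at a mean of 1, scaling by quantiles, by the median or by epithelial markers, fitting only the compared groups, no trend, blocks for the replicate number or for number 4 against the rest, a fit without every mouse numbered 4, and leave-one-out. Deviations from the group means correlated at 0.36 to 0.75 between mice numbered 4 of different groups (6 pairs), at 0.078 to 0.39 between mice sharing another number (7 pairs) and at −0.15 to 0.46 between mice of unlike numbers from 1 to 3 (17 pairs). Normal mice with and without BBR share 3 numbers, with 0.11 to 0.66. In simulated data for colitis against normal mice with 200 of 15315 genes changed, 12 were recovered at a log2 fold change of 1, 128 at 2 and 188 at 4, with 0, 9 and 20 false calls. The simulated spread was independent between mice and genes, without the split by number or a shift over all genes. These counts may therefore not hold for the real data.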

Additional observations from a re-analysis of the deposited data

Results flagged for a closer look

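Cldn2 was marked for a closer look because its colitis difference was not the same in the mice numbered 4 as in the mice numbered 1 to 3. The difference between the 2 effects was 4.25 on the log2 scale (SE 0.79, limma adjusted p = 0.0450), in a test added after seeing the data that has 1 colitis and 1 normal mouse numbered 4 in each treatment. Cldn2 was 36.39 FPKM in colitis mouse 4 and 23.17 FPKM in mouse 4 of the colitis mice receiving BBR, against 0.87 to 5.61 FPKM in the other 4 colitis mice. What the number 4 marks, and its part in this difference, was not tested.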

How the results depend on the processing

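None of the 10 genes passed the adjusted limit in the fit over all 12 mice, and this held under each pseudocount, filter, scaling and block. With the mice numbered 1 to 3 alone, 1 gene, Cldn2, passed in colitis against normal mice, in colitis with BBR against normal with BBR, and in colitis with BBR against normal mice. That fit leaves out the 2 colitis mice whose Cldn2 was not low. Leaving out each mouse in turn gave 0 to 2 genes in colitis with BBR against normal with BBR, where Cldn2 (−3.45, limma adjusted p = 0.0426) and Cldn8 (1.37, limma adjusted p = 0.0460) passed without mouse 4 of the colitis mice receiving BBR. It gave 0 to 1 in colitis with BBR against normal mice, where Cldn2 passed without the same mouse (−4.31, limma adjusted p = 0.0232). The replicate block gave 0 genes in every comparison and turned 3 signs in colitis against normal mice, Cldn4 to −0.013, Cldn15 to 0.086 and Cldn23 to −0.070. That block is partly confounded with colitis, since number 2 occurs only in colitis mice, with or without BBR. Centring on the median turned Cldn3 to 0.076 and Ocln to 0.012, and the mice numbered 1 to 3 alone turned Tjp1 to −0.021. Leaving out each mouse in turn moved Cldn4 between −0.44 and 1.22, Cldn23 between −0.25 and 0.32 and Tjp1 between −0.074 and 0.10 in colitis against normal mice, Cldn2 between −2.12 and 0.34 and Cldn15 between −2.30 and 0.24 in colitis with BBR against colitis, and Cldn4 between −0.17 and 1.49 and Cldn15 between −1.71 and 0.83 in the interaction. Single fold changes followed here were the 10 of colitis against normal mice and, in the other comparisons, those of at least 0.5 on the log2 scale, so small ones that turn easily were left out there. Of these 30, 20 kept their sign under every alternative. Over all 712 alternatives of these fold changes, 20 reversed. The causes were not tested. Precision is limited by 3 mice in each group and by the values being without read counts.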
